A study of Mus musculus with 25 samples.

Results

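The genes described here are those that copy DNA in S phase and those that carry a cell through G2 and mitosis, together with the cyclins and kinases of the G1/S step, in injured mouse tibialis anterior muscle. A list of 46 gene symbols was matched to the platform annotation of the arrays. A probe set was taken where the annotation gave it exactly 1 of these symbols, and for each gene the probe set of highest mean log2(signal + 13) over all 25 arrays was kept. In all, 43 of the 46 symbols had such a probe set, of 8251 genes named on the array by the same rule. They comprise 12 genes of the replication machinery, 3 of nucleotide supply, 8 regulators of G1 and of the G1/S step, 17 genes of G2 and mitosis, and 3 other genes linked to proliferation. The 15 genes of replication and nucleotide supply together are called the S-phase genes below. Tyms was measured only by probe sets shared with a pseudogene, and Tyms, Ccnb1 and Bub1b were not analysed here.

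The study measured total RNA of tibialis anterior muscle from female C57BL/6J mice aged 2 to 3 months with Affymetrix U74Av2 arrays, 1 array per sample. In the freeze groups, a steel probe of 6 mm diameter at dry ice temperature was held against the muscle for 10 seconds. In the contraction groups, the muscle was injured by 150 eccentric contractions in vivo, that is, contractions during which the muscle is lengthened. Muscle was taken at 6 hours and at 1, 3 and 7 days after either injury, with 3 arrays per group except freeze at 7 days and contraction at 1 day, which had 2 each, and 3 uninjured control muscles were measured once. No agent, transgene or deletion is named for any group. The labels do not say whether samples share a mouse, and the p-values below therefore reflect how much these particular samples vary, which may be technical.

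Adult muscle fibres have left the cell cycle. After injury the satellite cells, the stem cells of muscle, divide and give rise to myoblasts that fuse into new fibres, while macrophages, fibroblasts and endothelial cells also enter or divide in the tissue. D-type cyclins with Cdk4 start the passage out of G1, E2F factors then raise the genes of S phase, and cyclin A and cyclin B with Cdk1 drive G2 and mitosis, which ends when the anaphase-promoting complex, activated by Cdc20, marks its targets for destruction. In whole muscle, fewer cells of a type and less RNA per cell cannot be told apart.

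One array of the freeze group at 3 days, sample 436, stood apart from its group. Over the probe sets tested it had a correlation of 0.711 with either of the other freeze arrays at 3 days and of 0.935 to 0.942 with the control arrays, whereas all other pairs within a group lay between 0.921 and 0.972. Results are therefore given with all 25 arrays and without sample 436. All groups share 1 estimate of the spread, so leaving out this array also changes the standard errors of comparisons that it does not enter, and the median residual SD was 0.323 without it and 0.385 with it. Signals are MAS5 intensities on a linear scale, brought to 1 common mean on every array before deposit, so that a change is relative to the bulk of the array. Of the 43 genes, 41 passed the filter on dim probe sets, and Mcm6 and Ccnd2 did not. A gene is called, or said to have risen or fallen, where limma gave an adjusted p under 0.05 over all 9506 probe sets tested (Benjamini-Hochberg). The median log2 change of all probe sets tested lay between -0.12 and 0.02 in every comparison.

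S-phase and mitotic genes differ in the motifs of their promoters as known from work on the cell cycle: E2F sites mark many S-phase genes, while many G2 and mitotic genes carry a cell cycle homology region (CHR) beside CCAAT boxes. RefSeq windows of 300 bases, from 250 bases before to 50 bases after the gene start (GRCm38.p6), were found for 14 of the 15 S-phase genes and 14 of the 17 G2 and mitotic genes. The E2F words searched were TTTCGCGC, TTTGGCGC, TTTCCCGC and TTTGCCGC, the CHR word was TTTGAA and the CCAAT word was CCAAT, each on both strands. An E2F word was found in 5 of 14 S-phase windows (35.7%) and in 1 of 14 mitotic windows (7.14%), that of Cdk1, against 2.32% of the windows of all 27025 genes. The CHR word was found in 3 S-phase windows (21.4%) and 10 mitotic windows (71.4%), against 18.1% of all windows. A CHR word together with at least 2 CCAAT words was found in 1 S-phase window (7.14%) and 8 mitotic windows (57.1%), against 2.19% of all. The 5 S-phase windows with an E2F word were those of Mcm3, Mcm5, Mcm6, Mcm7 and Pola1. Of the replication genes called at 1 day after freeze injury with all arrays, Mcm5 is thus the only one among them. No E2F word was found for the others, Mcm2, Mcm4 and Pcna. A match describes these letters and is not a shown binding site. Of the genes that the results turn on, 1 S-phase window with E2F words (Mcm5) and 3 mitotic windows with CHR and CCAAT words (Cdk1, Ccnb2 and Cdc20) are shown, each 5′ to 3′ on the strand of the gene, with the words found in capitals. The positions are chr8:75109259-75109558 on the plus strand for Mcm5, chr10:69352863-69353162 on the minus strand for Cdk1, chr9:70421505-70421804 on the minus strand for Ccnb2 and chr4:118437294-118437593 on the minus strand for Cdc20. In Mcm5 2 E2F words on opposite strands overlap.
Mcm5: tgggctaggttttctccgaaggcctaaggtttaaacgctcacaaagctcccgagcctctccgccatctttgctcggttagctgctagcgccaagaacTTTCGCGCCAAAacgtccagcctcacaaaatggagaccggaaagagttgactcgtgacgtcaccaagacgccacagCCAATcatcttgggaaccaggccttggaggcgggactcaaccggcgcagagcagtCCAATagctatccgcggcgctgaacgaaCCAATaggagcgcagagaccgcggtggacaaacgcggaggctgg
Cdk1: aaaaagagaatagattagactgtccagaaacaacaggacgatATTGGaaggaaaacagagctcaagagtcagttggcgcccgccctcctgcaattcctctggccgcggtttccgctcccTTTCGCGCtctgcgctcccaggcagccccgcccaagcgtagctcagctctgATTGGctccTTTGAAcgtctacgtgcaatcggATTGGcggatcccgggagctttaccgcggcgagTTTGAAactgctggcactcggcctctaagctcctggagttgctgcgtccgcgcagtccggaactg
Ccnb2: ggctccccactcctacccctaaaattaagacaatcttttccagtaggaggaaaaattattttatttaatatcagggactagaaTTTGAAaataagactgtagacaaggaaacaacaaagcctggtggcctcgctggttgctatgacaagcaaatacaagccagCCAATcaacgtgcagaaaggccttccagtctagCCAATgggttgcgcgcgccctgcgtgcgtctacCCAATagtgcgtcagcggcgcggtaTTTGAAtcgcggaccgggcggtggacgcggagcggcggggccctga
Cdc20: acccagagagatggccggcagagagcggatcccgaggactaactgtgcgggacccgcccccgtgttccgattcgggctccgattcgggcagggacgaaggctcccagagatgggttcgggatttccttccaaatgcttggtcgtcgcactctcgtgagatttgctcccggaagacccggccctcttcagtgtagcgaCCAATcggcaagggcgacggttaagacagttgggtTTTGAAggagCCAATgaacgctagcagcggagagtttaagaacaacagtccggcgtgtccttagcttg

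Among the members, at 1 day after freeze injury genes of the replication machinery rose while Cdk1 was the 1 mitotic gene called. At 3 days after either injury genes of both kinds rose. Lists of other replication and mitosis genes, given further below, did not show the contrast of 1 day. With all arrays, 8 of the 41 genes tested were higher at 1 day after freeze injury than in controls, where 9.15% of all probe sets tested were higher. Of these 8, 4 belong to the 12 genes of the replication machinery (Mcm2, Mcm4, Mcm5 and Pcna), and Cdk1 to the 17 of G2 and mitosis. The others were Ccnd1, E2f1 and Cks1b. For Ccnd1 and E2f1 the other probe set was not called at this time. For Mcm5 the other probe set was called lower by limma, at -0.93 (adjusted p = 0.0447). Without sample 436, 15 genes were called, against 14.9% of all probe sets. Among them were 9 of the 15 S-phase genes, 14 of which were tested. Of the 17 mitotic genes still only Cdk1 was called on the kept probe sets. The other probe set of Mki67 was then also higher, by 1.27 (adjusted p = 0.00716). The median log2 change at this time was 0.79 over the 15 S-phase genes, with Mcm6 included, and 0.36 over the 17 G2 and mitotic genes (over all probe sets tested -0.07). The count was 4 without control array 3 or sample 460 and 5 without sample 464.

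At 3 days after freeze injury 16 genes were higher than in controls with all arrays, against 9.68% of all probe sets, and 36 without sample 436, against 21.7%. With all arrays 7 of 15 S-phase genes were called with a median of 1.13, and 6 of 17 mitotic genes with a median of 1.08, where the median of all probe sets was -0.09. Without sample 436 the counts were 13 and 14 and the medians 1.83 and 1.94, where the median of all probe sets was -0.12. At 3 days after contraction injury 10 genes were higher with all arrays, against 5.67% of all probe sets, and 25 without sample 436, against 13.1%. Over this comparison the medians were 1.02 for the S-phase genes and 1.05 for the mitotic genes. The 1 gene that was lower at this time was Cdc45, where 2.58% of all probe sets were lower with all arrays and 9.74% without sample 436. The calls of freeze injury at 3 days with all arrays rested on few arrays. Without sample 450 or 468, 0 members were called, and 8, 9 and 7 without control array 1, 2 or 3. Sample 436 stayed in these fits, so they do not show how the calls made without it depend on single arrays. For contraction injury 2 were called without sample 435, 3 without sample 467, and 4, 6 and 3 without control array 1, 2 or 3.

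At the other times few members were called. At 1 day after contraction injury 1 gene, Ccnf, was higher with and without sample 436, against 1.63% and 3.31% of all probe sets. It was not called when any 1 of 17 arrays was left out, either array of its own group among them. At 7 days after freeze injury limma called 0 members with all arrays, against 3.65%. It gave an unadjusted p under 0.05 to 9 of the 41 members tested and to 2265 of all 9506 probe sets. Without sample 436 it called 15, against 11.8% of all probe sets, 3 of them S-phase genes and 8 mitotic genes, with medians of 0.56 and 0.68. At 7 days after contraction injury it called 0 with all arrays, against 0.473%, and 1 without sample 436, Stmn1, against 2.26%. With all arrays 2 members had an unadjusted p under 0.05, against 887 of all 9506 probe sets.

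At 6 hours after freeze injury limma called 0 members with all arrays, against 3.33% of all probe sets higher. It gave an unadjusted p under 0.05 to 2 of the 41 members tested and to 1659 of all 9506 probe sets. Without sample 436 Ccnd1 was higher, against 6.45%, and Lig1 lower, against 5.01%. At 6 hours after contraction injury 0 were called with and without sample 436, against 1.63% and 2.55%. With all arrays 0 members had an unadjusted p under 0.05, against 1006 of all 9506 probe sets. Over all times and injuries, the moderated F test of any change against control called 17 members, against 26.2% of all probe sets, and 34 without sample 436, against 49.6%. The test of whether the course over time differed between the injuries called 0 members, against 0.589%, and without sample 436 it called Lig1, Ccnf, Cdk1 and Stmn1, against 4.49%.

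**Figure D1:**
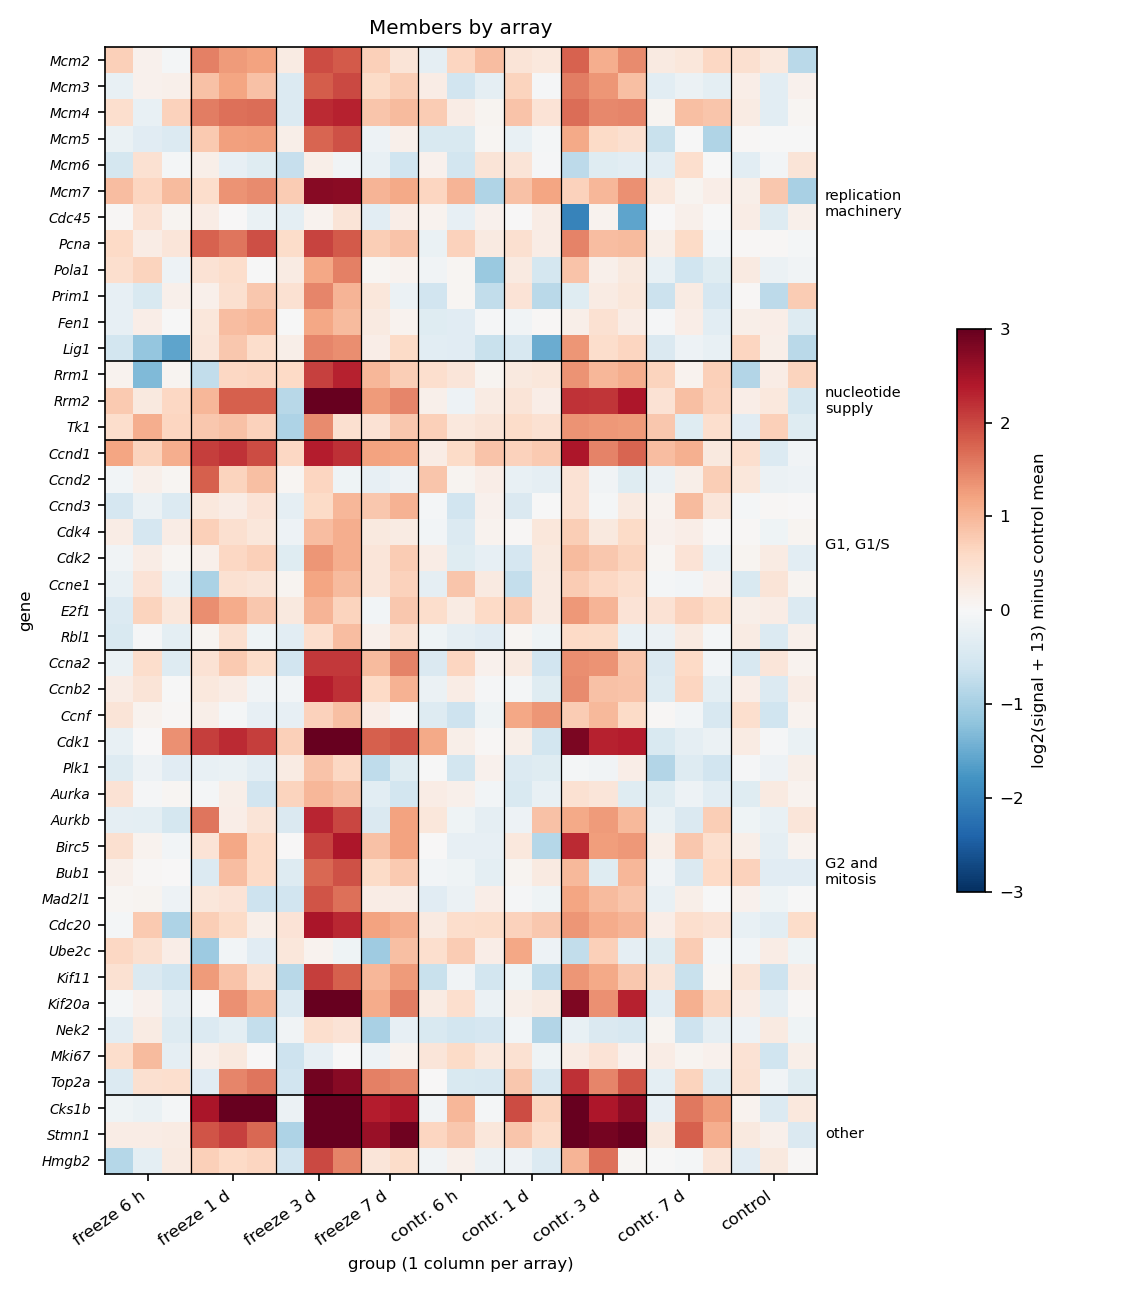
Each row is 1 of the 43 genes and each column 1 array, with the groups named below and the lists at the right. Colour gives log2(signal + 13) minus the mean of the 3 control arrays, from -3 (blue) to 3 (red), with values beyond that range drawn in the end colours. At 3 days after freeze injury 2 arrays are red in most rows and the first column, sample 436, is near the controls.

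The difference between the lists can be read array by array, as a description with no test. The S-phase median minus the mitotic median was 0.35, 0.51 and 0.69 on the freeze arrays at 1 day, and 0.00, 0.26 and -0.17 on the control arrays. On the freeze arrays at 1 day the difference thus lay above that of every control array. At 3 days after freeze injury it was -0.29 and -0.07, with 0.41 on sample 436, and at 7 days it was -0.14 and -0.47. On the arrays of contraction injury at 3 days it was 0.14, -0.04 and 0.06, inside the range of the controls. The difference was above 0 on all arrays of 6 hours after either injury and of 1 and 7 days after contraction injury as well, between 0.03 and 0.42. Contraction sample 463 of 1 day, at 0.42, exceeded freeze sample 422 of 1 day, at 0.35. An S-phase median above the mitotic one was thus not particular to freeze injury at 1 day. The difference was below 0 on 4 of the 5 freeze arrays of 3 and 7 days, sample 436 being the exception, and sample 468 and 1 array of 7 days stayed inside the range of the controls.

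**Figure D2:**
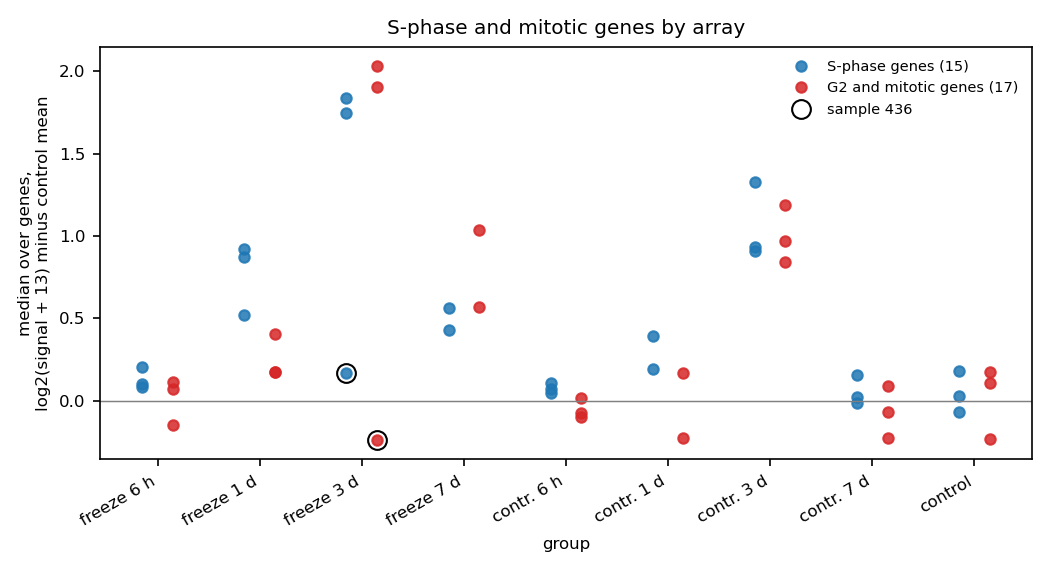
Each point is the median over the genes of a list on 1 array, as log2(signal + 13) minus the mean of the controls, for the 15 S-phase genes (blue) and the 17 G2 and mitotic genes (red), with sample 436 ringed. S-phase medians of 0.52 to 0.92 stand above mitotic medians of 0.17 to 0.41 at 1 day after freeze injury, and both lists lie between 1.74 and 2.03 at 3 days on the 2 arrays that are not ringed.

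The step between times was tested directly, without the controls. In the freeze groups 2 members, Plk1 and Aurka, were higher at 3 days than at 1 day with all arrays, against 0.494% of all probe sets. Without sample 436, 21 members were higher, against 9.33%: 14 of the 17 mitotic genes, 3 of the 12 replication genes and 2 of the 3 genes of nucleotide supply. The median change over this step was 0.75 with all arrays and 1.41 without sample 436 for the mitotic genes, 0.11 and 0.69 for the replication machinery, and 0.55 and 2.01 for nucleotide supply. The difference between the lists was not tested. At 7 days against 3 days after freeze injury 2 members were lower with all arrays, again Plk1 and Aurka, against 0.0947%, and 23 without sample 436, against 8.91%. The calls with all arrays also rested on few arrays: 0 or 1 member was called between 1 and 3 days without any 1 of the freeze arrays of 1 day or of samples 450 and 468, or without contraction sample 425, and 0 or 1 between 3 and 7 days without sample 450, 468, 440 or 454. Sample 436 stayed in these fits.

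In the contraction groups Lig1 and Cdk1 were higher at 3 days than at 1 day with all arrays, against 0.326% of all probe sets. Without sample 436, 17 were higher, against 5.93%, and Cdc45 was lower, against 3.85%. At 7 days against 3 days Cdk1 was lower with all arrays, against 0.473%, and 21 members were lower without sample 436, against 7.92%, while Cdc45 was higher, against 5.3%. Leaving out either contraction array of 1 day, or sample 435 or 467 of 3 days, left 0 members called between 1 and 3 days, and 0 were called between 3 and 7 days without sample 435 or 467. Between 3 and 7 days 2 were called without sample 449 or 450, and 3 without sample 468.

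Among the genes of the replication machinery the helicase subunits Mcm2 to Mcm7 unwind the DNA. On its kept probe set Mcm5 gave 189.7, 263 and 268 signal units at 1 day after freeze injury and 379.9 and 430.1 at 3 days, with 119 on sample 436. It gave 247, 161 and 152 at 3 days after contraction injury, against 106, 104 and 103 in controls. All these arrays lay above the controls, and freeze arrays at 7 days, at 92 and 118, overlapped with them. Its change at 1 day after freeze injury was 1.09 ± 0.33 on the log2 scale (SE, adjusted p = 0.0316), and at 3 days it was 1.28 ± 0.33 on the log2 scale (SE, adjusted p = 0.0176) and 1.83 ± 0.25 (SE, adjusted p = 3.31e-06) without sample 436. At 6 hours it gave 89, 79.6 and 75.7 after freeze injury and 72.9, 72.3 and 109.7 after contraction injury, and later contraction arrays gave 88.3 and 100.4 at 1 day and 61.3, 104 and 49.8 at 7 days. The other probe set of Mcm5 was called lower at 1 and 3 days after freeze injury, as described further below.

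Mcm2 gave 136, 115 and 109 at 1 day and 191 and 174 at 3 days after freeze injury, with 49.3 on sample 436, and 165, 98.1 and 128 at 3 days after contraction injury, against 60.5, 52.2 and 17.2 in controls. All of these but sample 436 were above every control, and the arrays of the other groups spanned 30.7 to 86.4. Its change was 1.33 ± 0.39 on the log2 scale (SE, adjusted p = 0.0278) at 1 day and 1.35 ± 0.39 on the log2 scale (SE, adjusted p = 0.0263) at 3 days after freeze injury, and 1.42 ± 0.39 on the log2 scale (SE, adjusted p = 0.0319) at 3 days after contraction injury. Mcm4 had the largest change of the Mcm genes at 1 day after freeze injury, where it gave 113, 124 and 127, against 39.2, 22.3 and 32.2 in controls, a change of 1.62 ± 0.47 on the log2 scale (SE, adjusted p = 0.0244). Mcm7 gave 294 and 292 at 3 days after freeze injury, with 66.2 on sample 436, against 39.3, 68.4 and 10.7 in controls, and had the largest change of the list at that time, 2.07 ± 0.49 on the log2 scale (SE, adjusted p = 0.0146). Contraction arrays of 3 days gave 61.9, 80 and 107 for Mcm7, which overlapped with the controls. Mcm6 had 2.7 to 25.4 signal units over all 25 arrays, a dim range on which no difference could be tested here.

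Pcna, the sliding clamp that holds DNA polymerase on its template, gave 544, 476 and 604 at 1 day after freeze injury, 645 and 571 at 3 days with 223 on sample 436, and 256 and 279 at 7 days, against 153, 152 and 142 in controls. Every one of these arrays lay above the controls. After contraction injury it gave 215 and 175 at 1 day and 439.8, 296 and 299 at 3 days, and at 7 days 170.3, 229 and 140.5, which overlapped with the controls. At 6 hours it gave 233, 176 and 196 after freeze injury and 129, 249 and 183 after contraction injury. Its change was 1.77 ± 0.29 on the log2 scale (SE, adjusted p = 0.000558) at 1 day after freeze injury, 1.47 ± 0.29 on the log2 scale (SE, adjusted p = 0.00984) at 3 days, and 1.12 ± 0.29 on the log2 scale (SE, adjusted p = 0.0247) at 3 days after contraction injury. The arrays of 1 and 3 days after freeze injury overlapped, and the difference of 3 days against 1 day was -0.30, or 0.17 without sample 436 (adjusted p = 0.706).

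Other genes of the fork showed other courses. Lig1, the ligase that joins Okazaki fragments, gave 40.7, 21.8 and 13.2 at 6 hours, 87.5, 123 and 99.2 at 1 day, and 204 and 192 at 3 days after freeze injury with 75.7 on sample 436, against 108, 74.5 and 31.9 in controls. After contraction injury it gave 183, 99.6 and 109.7 at 3 days, against 42.6 and 14.9 at 1 day, a step of 1.82 ± 0.42 on the log2 scale (SE, adjusted p = 0.0324). Against controls it was called without sample 436 only, lower at 6 hours by -1.09 and higher at 3 days by 1.43 after freeze injury. Cdc45, which joins the helicase to the fork, gave 13.3, 99.2 and 22.1 at 3 days after contraction injury, against 109.6, 66.8 and 104 in controls, a change of -1.16 ± 0.36 on the log2 scale (SE, adjusted p = 0.0474). One of these 3 arrays was inside the range of the controls and 2 were far below it. Fen1, Pola1 and Prim1, the flap nuclease, the catalytic subunit of polymerase alpha and the primase, were called in no group with all arrays. Without sample 436 they were higher at 3 days after freeze injury, by 1.05, 1.33 and 1.23 on the log2 scale, and Fen1 also at 1 day, by 0.75. Mcm3 was likewise called only without sample 436, with 0.98 at 1 day and 1.90 at 3 days after freeze injury.

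Ribonucleotide reductase makes deoxyribonucleotides from 2 kinds of subunit, of which Rrm2 is known to be made in S phase. Rrm2 gave 50.3, 98 and 98.4 at 1 day after freeze injury, 361 and 356 at 3 days with 4.9 on sample 436, and 64.1 and 75.2 at 7 days. It gave 132, 128 and 159 at 3 days after contraction injury, against 24, 26.6 and 9.3 in controls. These arrays other than sample 436 all lay above the controls, and the arrays of 6 hours and of contraction at 1 day spanned 15.6 to 41.9. At 3 days its change was 2.08 ± 0.68 on the log2 scale (SE, adjusted p = 0.0399) after freeze injury, 3.54 ± 0.29 (SE, adjusted p = 1.84e-09) without sample 436, and 2.25 ± 0.68 on the log2 scale (SE, adjusted p = 0.0446) after contraction injury. At 7 days after contraction injury it gave 30.3, 47.2 and 38.3.

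Rrm1, the larger subunit, gave 241 and 290.1 at 3 days after freeze injury, with 79.2 on sample 436, and 142, 108 and 118 at 3 days after contraction injury, against 20.1, 57.9 and 84.3 in controls. At 1 day after freeze injury it gave 23.6, 80.8 and 83.3, inside the range of the controls. Its change at 3 days after freeze injury was 1.65 ± 0.46 on the log2 scale (SE, adjusted p = 0.0219). Tk1, the thymidine kinase that salvages thymidine, gave 264, 253 and 249.5 at 3 days after contraction injury, against 72.4, 167 and 71 in controls, a change of 1.30 ± 0.40 on the log2 scale (SE, adjusted p = 0.048). Its freeze arrays at 3 days gave 279 and 139.5, with 44.6 on sample 436, and 1 of the 2 higher arrays lay within the controls. At 1 day after freeze injury it gave 178, 188 and 162. Over the remaining groups Rrm1 spanned 11.3 to 109 and Tk1 72.3 to 219.

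Of the regulators of G1, cyclin D1 changed most on the kept probe sets. Ccnd1 gave 194, 131 and 179 at 6 hours, 365, 393 and 338 at 1 day, 447 and 399 at 3 days with 126 on sample 436, and 195 and 192 at 7 days after freeze injury. It gave 92.9, 121 and 152 at 6 hours, 134 and 143 at 1 day, 471, 239 and 290.2 at 3 days and 158, 177 and 97.3 at 7 days after contraction injury, against 115, 55.4 and 71.4 in controls. All freeze groups stood above the controls, sample 436 included. Its change was 2.06 ± 0.35 on the log2 scale (SE, adjusted p = 0.000696) at 1 day and 1.72 ± 0.35 on the log2 scale (SE, adjusted p = 0.00984) at 3 days after freeze injury, and 1.88 ± 0.35 on the log2 scale (SE, adjusted p = 0.00352) at 3 days after contraction injury. At 6 hours after freeze injury the change was 0.98 ± 0.35 on the log2 scale (SE, adjusted p = 0.124) with all arrays and 0.98 ± 0.25 (SE, adjusted p = 0.0121) without sample 436. The other probe set of Ccnd1 was called against controls in no group with all arrays. It changed by 0.81 at 1 day (adjusted p = 0.242) and 0.85 at 3 days (adjusted p = 0.197) after freeze injury. At 3 days after contraction injury it changed by 0.28 (adjusted p = 0.728). Without sample 436 it was higher at 3 days after freeze injury, by 1.47 (adjusted p = 0.00689).

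Cyclin D3 was also measured. Ccnd3 gave 432 and 507 at 7 days after freeze injury and 262, 476 and 316 at 7 days after contraction injury, against 232, 246 and 245 in controls. At 6 hours after freeze injury it gave 167, 213 and 179, below every control, and at 1 day 304, 282 and 324. Its change at 7 days was 0.92 ± 0.30 on the log2 scale (SE, adjusted p = 0.0692) after freeze injury and 0.92 ± 0.24 (SE, adjusted p = 0.00765) without sample 436. At 3 days it gave 365 and 491 after freeze injury, with 199 on sample 436, and 330.0, 229 and 292 after contraction injury, and its contraction arrays of 6 hours and 1 day spanned 157 to 266. Ccnd2 gave 63.7, 22 and 28.7 at 1 day after freeze injury, 4.3 to 26.3 in the other injured groups and 14.8, 6.6 and 6.9 in controls, and it was not tested.

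Cdk4, the kinase partner of the D cyclins, gave 580.5, 491 and 445 at 1 day after freeze injury and 678 and 762 at 3 days, with 315 on sample 436, against 360.3, 321 and 368 in controls. Its change at 3 days after freeze injury was 0.63 ± 0.26 on the log2 scale (SE, adjusted p = 0.0881) and 1.01 ± 0.21 (SE, adjusted p = 0.000382) without sample 436. It gave 594, 433 and 528 at 3 days after contraction injury, also above the controls, and the other groups spanned 242 to 443. The other probe set of Cdk4 was higher at 3 days after freeze injury with all arrays, by 0.88 (adjusted p = 0.0463). At 3 days after contraction injury that probe set gave 57.0, 90.3 and 69.7, which overlapped with 63.3, 67.0 and 51.1 in controls. E2f1, the activating E2F factor, gave 78.6, 61.6 and 48 at 1 day after freeze injury, against 26.2, 27.8 and 13.1 in controls. On this probe set, of type _f_at, the change was 1.11 ± 0.32 on the log2 scale (SE, adjusted p = 0.0237). The other probe set of E2f1 changed by 0.35 at that time and was not called by limma (adjusted p = 0.555, or 0.428 without sample 436). The rise of E2f1 at 1 day therefore rests on the kept probe set. Cdk2, Ccne1 and Rbl1, which are the kinase and cyclin of the G1/S step and a pocket protein related to Rb, were called in no group with all arrays. Without sample 436 they were higher at 3 days after freeze injury, by 1.20, 1.06 and 0.72.

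Cdk1, the kinase of mitosis, was the 1 gene of G2 and mitosis called at 1 day after freeze injury. It gave 116, 129.6 and 114 at 1 day after freeze injury, 338 and 328 at 3 days with 36.9 on sample 436, and 92.1 and 98.5 at 7 days, against 22.8, 16.7 and 13.4 in controls. After contraction injury it gave 21.3 and 7.6 at 1 day, 202, 137 and 142 at 3 days and 9, 12.2 and 14 at 7 days. Freeze arrays from 1 day on and contraction arrays of 3 days all lay above the controls, and those of contraction at 1 and 7 days did not. Its change was 2.13 ± 0.52 on the log2 scale (SE, adjusted p = 0.0102) at 1 day and 2.58 ± 0.52 on the log2 scale (SE, adjusted p = 0.00984) at 3 days after freeze injury, and 2.49 ± 0.52 on the log2 scale (SE, adjusted p = 0.00741) at 3 days after contraction injury. At 6 hours it gave 13.1, 17.5 and 65.5 after freeze injury and 53.5, 21.1 and 18.3 after contraction injury. Its window above is the 1 mitotic window that held an E2F word as well as CHR words.

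Of the cyclins, Ccnb2 gave 149, 139 and 108 at 1 day after freeze injury and 647 and 584 at 3 days, with 109 on sample 436, against 136, 84.2 and 138 in controls. The arrays of 1 day overlapped with the controls and the 2 high arrays of 3 days were far above them. It gave 335, 226 and 221 at 3 days after contraction injury and 184 and 254 at 7 days after freeze injury. Its change at 3 days after freeze injury was 1.48 ± 0.42 on the log2 scale (SE, adjusted p = 0.0239), and the step from 1 day was 2.12 ± 0.28 (SE, adjusted p = 9.44e-06) without sample 436. The other groups of Ccnb2 spanned 85.9 to 189.8. Ccna2, which acts in both S phase and G2, gave 118, 154 and 129.7 at 1 day after freeze injury, 414 and 413 at 3 days with 52.1 on sample 436, and 176 and 261 at 7 days, against 56.8, 113 and 92.8 in controls. It gave 244, 234 and 162 at 3 days after contraction injury. Its change at 3 days after freeze injury was 1.22 ± 0.51 on the log2 scale (SE, adjusted p = 0.0908) and 2.13 ± 0.35 (SE, adjusted p = 3.38e-05) without sample 436, and the remaining groups spanned 52.4 to 139.

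Ccnf, cyclin F, a substrate receptor of a ubiquitin ligase, was the 1 member called at 1 day after contraction injury. It gave 199 and 225 there, against 122, 49.6 and 89.1 in controls, a change of 1.24 ± 0.31 on the log2 scale (SE, adjusted p = 0.0425). Both arrays lay above every control and above every freeze array, and at 3 days after contraction injury it gave 149, 173 and 129.5. In freeze muscle it gave 94.3, 78.3 and 67.3 at 1 day and 141 and 164 at 3 days, with 67.5 on sample 436, and elsewhere 48.5 to 112.

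The kinases Plk1 and Aurka, which act at centrosomes and the spindle, were the 2 members called between times in freeze muscle with all arrays. Plk1 gave 278 and 236 at 3 days after freeze injury, with 178 on sample 436, against 125, 127 and 117 at 1 day, a step of 0.82 ± 0.21 on the log2 scale (SE, adjusted p = 0.034). It gave 82.6 and 112 at 7 days, all below the arrays of 3 days, and the change of 7 days against 3 days was -1.14 ± 0.23 on the log2 scale (SE, adjusted p = 0.012). In controls it gave 145, 132 and 169.7, above all arrays of 1 and 7 days after freeze injury, and in the other groups 75.4 to 172. These are values of the kept probe set. Plk1 has 2 other probe sets, both of type _f_at. By limma 1 of them was higher than controls at 3 days after freeze injury, by 1.48 (adjusted p = 0.0123). The other was lower than controls at 7 days, at -1.53 (adjusted p = 0.0347). Aurka gave 108 and 98.3 at 3 days after freeze injury, with 83.4 on sample 436, against 33.7, 59.4 and 52.1 in controls, a change of 0.85 ± 0.25 on the log2 scale (SE, adjusted p = 0.0284). For both genes sample 436 was above the controls too. The step of Aurka was 1.00 ± 0.25 on the log2 scale (SE, adjusted p = 0.039) between 1 and 3 days and -1.28 ± 0.28 on the log2 scale (SE, adjusted p = 0.0262) between 3 and 7 days.

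Top2a, the topoisomerase that untangles sister chromatids, gave 168 and 149 at 3 days after freeze injury, with 3.5 on sample 436, and 99, 54 and 78 at 3 days after contraction injury, against 20.5, 9.8 and 6.1 in controls. At 7 days after freeze injury it gave 56.8 and 53.7, above the controls, and at 1 day 6.3, 54.2 and 60.9, of which 1 array was at their level. Its change at 3 days after freeze injury was 1.69 ± 0.66 on the log2 scale (SE, adjusted p = 0.0748) and 2.81 ± 0.49 (SE, adjusted p = 6.46e-05) without sample 436, and other arrays spanned 4.4 to 30. Birc5 (survivin, of the chromosomal passenger complex) gave 135 and 180.3 at 3 days after freeze injury, with 23.2 on sample 436, and 157, 72.6 and 76 at 3 days after contraction injury, against 27.7, 16.7 and 25.8 in controls. Its change was 1.49 ± 0.45 on the log2 scale (SE, adjusted p = 0.0296) after freeze injury and 1.60 ± 0.45 on the log2 scale (SE, adjusted p = 0.0342) after contraction injury. Cdc20 gave 128, 114 and 83 at 1 day after freeze injury and 449.7 and 395 at 3 days, with 99.2 on sample 436, against 59.3, 55.1 and 112 in controls, and its change at 3 days was 1.70 ± 0.41 on the log2 scale (SE, adjusted p = 0.0146).

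Kif20a, a kinesin of cytokinesis, was kept on a probe set of type _f_at. It gave 258 and 241 at 3 days after freeze injury, with 3.8 on sample 436, against 13.2, 5.5 and 9.8 in controls, a change of 2.24 ± 0.69 on the log2 scale (SE, adjusted p = 0.0315) with all arrays and 3.56 ± 0.43 (SE, adjusted p = 4.69e-07) without that array. Its other probe set changed by 1.26 (adjusted p = 0.0296) with all arrays and by 1.92 without sample 436. Aurkb, Bub1, Mad2l1 and Kif11, the kinase of the passenger complex, 2 parts of the spindle checkpoint and a spindle kinesin, were called only without sample 436. They were then higher at 3 days after freeze injury, by 2.15, 1.82, 1.78 and 1.94. Nek2, a centrosome kinase, and Ube2c, the E2 enzyme of the anaphase-promoting complex, were called against controls in no group with or without sample 436. Nek2 gave 68.8, 75.5 and 52.5 at 1 day after freeze injury and 140.3 and 132 at 3 days with 87.8 on sample 436, against 84.8, 118 and 86.2 in controls. Ube2c spanned 11.7 to 104 over the injured groups, and 34.9 to 47.8 in controls.

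The probe set kept by the rule did not show the course of its gene in every case. Mki67, a marker of cycling cells, was kept on a probe set of type _r_at that gave 38.7 and 47.8 at 3 days after freeze injury, with 27 on sample 436, and 59.7, 67.8 and 54.2 at 3 days after contraction injury, against 69.4, 27.6 and 55.6 in controls. Its other probe set gave 237 and 247 at 3 days after freeze injury with 3.3 on sample 436, and 145.6, 95.9 and 91.5 at 3 days after contraction injury, against 25.6, 5.5 and 12.7 in controls. On that probe set Mki67 was higher by 1.95 after freeze injury (adjusted p = 0.046) and by 2.21 after contraction injury (adjusted p = 0.044). At 1 day after freeze injury it gave 40.7, 71.6 and 44.1 there, a change of 1.27. The adjusted p of this change was 0.201 with all arrays and 0.00716 without sample 436. For Mcm5 the other probe set, also _r_at, fell by 0.93 at 1 day (adjusted p = 0.0447) and by 1.18 at 3 days after freeze injury (adjusted p = 0.0173), where the kept one rose. With all arrays these were the 2 comparisons in which probe sets of 1 gene were called in opposite directions, over 14 genes with several probe sets. Without sample 436 opposite calls were also made for Mcm5 in freeze minus contraction, where the other probe set gave -1.03 at 1 day and -1.20 at 3 days. For Lig1 the other probe set was then lower at 3 days after freeze injury, at -1.23 (adjusted p = 0.0101). For Tk1 it was lower at 1 day, at -1.53 (adjusted p = 0.00989), and at 3 days, at -1.32 (adjusted p = 0.0298). With all arrays the other probe set of Tk1 was already lower at 1 day after freeze injury (adjusted p = 0.0326). At 3 days after contraction injury, where the kept probe set of Tk1 rose, the other changed by -0.89 (adjusted p = 0.227). The direction of Mcm5, Lig1 and Tk1 in freeze muscle therefore depends on the probe set. In all, 5 genes were kept on a probe set of type _r_at or _f_at, whose probes the maker marks as less specific, and their values are uncertain: Mki67, Kif20a, E2f1, Ube2c and Hmgb2.

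Of the 3 other genes linked to proliferation, Cks1b had the largest change of all members tested at 1 day after freeze injury, and Stmn1 at 3 days after contraction injury. Cks1b, which binds cyclin-dependent kinases, gave 135, 204 and 226 at 1 day after freeze injury, 387 and 274 at 3 days with 11.3 on sample 436, and 128 and 135 at 7 days, against 16.2, 7.6 and 20.7 in controls. After contraction injury it gave 92.6 and 30.4 at 1 day, 206, 134 and 163 at 3 days and 10, 68.1 and 53.1 at 7 days, and at 6 hours the injured groups spanned 10.9 to 41.4. Its change was 2.86 ± 0.68 on the log2 scale (SE, adjusted p = 0.0081) at 1 day after freeze injury and 2.71 ± 0.68 on the log2 scale (SE, adjusted p = 0.0194) at 3 days after contraction injury. Stmn1, stathmin, which destabilises microtubules, gave 711 and 579 at 3 days after freeze injury, with 9 on sample 436, and 236 and 298 at 7 days, against 37.6, 32.9 and 17.7 in controls. It gave 565, 290.5 and 311 at 3 days after contraction injury, a change of 3.21 ± 0.77 on the log2 scale (SE, adjusted p = 0.0155), and 38, 132 and 75.5 at 7 days. At 1 day it gave 140.4, 159.8 and 123 after freeze injury and 60.6 and 48 after contraction injury, and at 6 hours the injured groups spanned 35.6 to 59.1. Changes at 3 days after freeze injury were 2.37 with all arrays and 3.63 without sample 436 for Cks1b, and 2.35 and 3.98 for Stmn1. Hmgb2, a chromatin protein, gave 33.2, 29.4 and 31.4 at 1 day after freeze injury, 98.3 and 66.3 at 3 days with 6 on sample 436, and 2.5 to 74.9 in the other injured groups, against 9.4, 21.7 and 15.8 in controls.

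**Figure D3:**
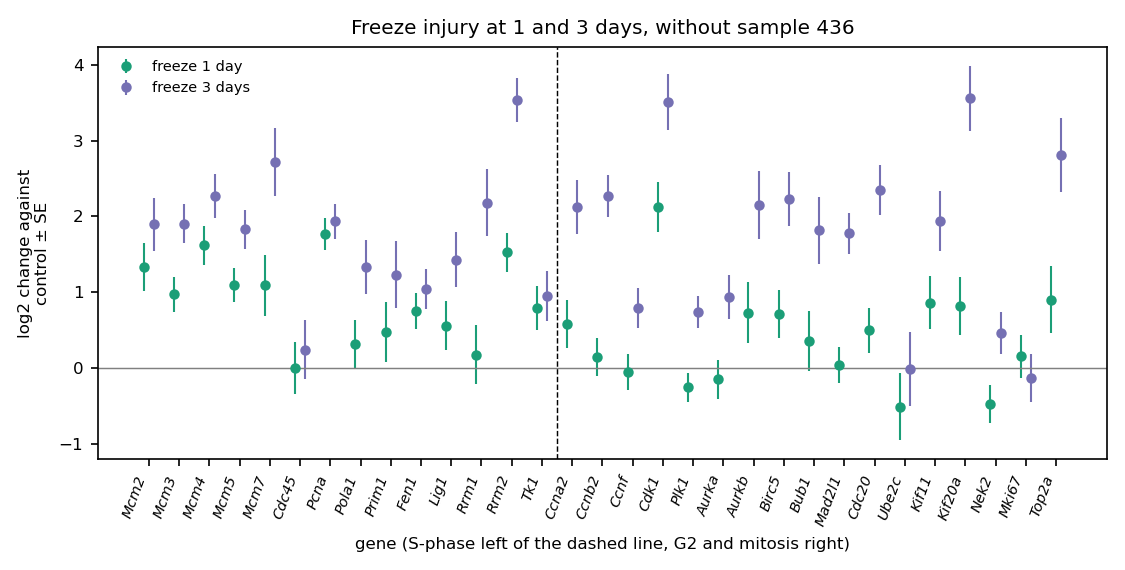
Points give the log2 change against control at 1 day (green) and 3 days (purple) after freeze injury for the S-phase genes and the G2 and mitotic genes tested, without sample 436, and bars the standard error from limma. Values are those of the kept probe sets. At 1 day the mitotic genes right of the dashed line lie between -0.51 and 0.91 except Cdk1 at 2.13. At 3 days they reach up to 3.56.

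The injuries were compared at each time. At 1 day Pcna and Cdk1 were higher in freeze than in contraction muscle, and Ccnf was lower. With all arrays these were 2 higher members, against 0.715% of all probe sets, and 1 lower, against 0.736%. The difference was 1.42 ± 0.33 on the log2 scale (SE, adjusted p = 0.0307) for Pcna, 2.32 ± 0.59 on the log2 scale (SE, adjusted p = 0.0489) for Cdk1 and -1.28 ± 0.31 on the log2 scale (SE, adjusted p = 0.0398) for Ccnf, and for each of these the arrays of the 2 groups did not overlap. Without either contraction array of 1 day, or without any 1 freeze array of 1 day, 0 members were called, and 1 was called without sample 467, 418, 440 or 454. With adjacent sample numbers as a random block Pcna alone of the 3 was called, at 1.41 (adjusted p = 0.04), and Cdk1 had an adjusted p of 0.0599. Without sample 436, 10 members were higher, against 6.45%, and Ccnf lower, against 3.76%. The added ones were Mcm4, Mcm5, Lig1, Rrm2, Ccnd1, Kif11, Cks1b and Stmn1, with differences of 0.98, 1.23, 1.55, 1.24, 1.32, 1.31, 1.54 and 1.20.

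At 6 hours limma called 0 members higher in freeze than in contraction muscle, with and without sample 436. Of all probe sets 0.252% and 1.85% were higher. With all arrays limma gave an unadjusted p under 0.05 to 0 members and to 789 of all 9506 probe sets. At 3 days it called 0 with all arrays, against 0.0421%. It gave an unadjusted p under 0.05 to 7 members and to 751 of all 9506 probe sets. Without sample 436 it called 13 higher in freeze muscle, against 8.92%. Of these Mcm7 differed by 1.70, Kif20a by 1.40, Ccnb2 by 1.22 and Cdc20 by 1.20, and Cdc45, which was low on 2 contraction arrays, by 1.40. With all arrays these differences were 1.05, 0.08, 0.44, 0.55 and 1.22, and none was called. Rrm2 differed by 1.29 without sample 436 and by -0.17 with all arrays, so that its direction rests on this array. The other probe set of Kif20a gave 0.68 without sample 436 (adjusted p = 0.128). At 7 days limma called 0 with all arrays, against 0.368%. It gave an unadjusted p under 0.05 to 2 members and to 1028 of all 9506 probe sets. Without sample 436 it called 5 higher in freeze muscle, against 5.69%: Cdk1 by 2.13, Stmn1 by 1.68, Cks1b by 1.54, Ccna2 by 1.19 and Mcm3 by 0.91.

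Other genes of the same processes, which are not members, were described from lists of 43 replication genes, 41 mitosis genes and 16 CDK inhibitors, Rb proteins and related factors with a probe set, of which 39, 39 and 15 were tested. At 1 day after freeze injury 3 replication genes and 3 mitosis genes were higher with all arrays, where 9.15% of all probe sets were, and 4 and 11 without sample 436, where 14.9% were. The median change over each list was 0.20 and 0.37. The contrast between the S-phase and mitotic members at this time was thus not seen in these lists. Among the genes called higher were Uhrf1, a cofactor of DNA methylation at the fork, by 2.21, Cdt1, which loads the helicase, by 1.32, Cks2 by 1.76 and the condensin subunit Smc2 by 1.70, and without sample 436 the securin gene Pttg1 was lower, at -0.78. In freeze muscle of 3 days 5 and 15 were higher, against 9.68% of all probe sets, and 17 and 25 without sample 436, against 21.7%, led by Uhrf1 at 2.23, Dck at 1.63, the cytokinesis gene Anln at 2.72 and Cks2 at 2.20. Without sample 436 1 replication gene and 3 mitosis genes were lower there, Pttg1 at -0.98 and Mybl2 at -0.88 among them. In contraction muscle of 3 days 2 and 10 were higher, against 5.67%, and 5 and 17 without sample 436, against 13.1%, led by Uhrf1 at 2.29, Dnmt1 at 1.42, Anln at 2.57 and Prc1 at 2.35, and Pola2 was lower at -2.05. At 6 hours after freeze injury Rpa1, of the single-strand binding complex, was lower at -1.06.

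Among the regulators, with all arrays Myc was higher at 6 hours by 3.42 after freeze injury and 2.32 after contraction injury, and at 1 day by 2.23 and 2.18. Cdkn1a (p21) is an inhibitor of cyclin-dependent kinases. With all arrays it was higher by 1.43 at 6 hours and 1.34 at 1 day after freeze injury, and by 1.35 at 3 days after contraction injury. At 6 hours after contraction injury its change was 1.49, with an adjusted p of 0.0629 with all arrays and 0.000223 without sample 436. Without that array it was also higher at 3 and 7 days after freeze injury, by 1.74 and 1.25. Cdkn1c (p57), another inhibitor, was higher at 7 days, by 3.51 after freeze injury and 2.00 after contraction injury, and by 1.77 at 3 days after freeze injury. Without sample 436 Cdkn1c was also higher at 3 days after contraction injury, by 1.26, and lower at 1 day after freeze injury, at -0.85. Cdkn2c (p18), an inhibitor of the D cyclin kinases, was lower at 1 day after freeze injury, at -1.02.

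Sums of marker genes of other cell types also differed between the groups, with time courses of their own. The summed signal of 15 macrophage markers was 6808 to 9623 at 1 day after freeze injury and 28490 and 30320 at 3 days, with 445 on sample 436, and 9787 to 14810 at 3 days after contraction injury, against 637 to 848 in controls. Of the 15, 10, 11 and 12 were called higher in these groups. The sum of 10 markers of myoblasts and satellite cells was 3503 to 4075 at 6 hours, when 0 members were called with all arrays, 1703 to 2126 at 1 day and 5279 and 5310 at 3 days after freeze injury, with 1513 on sample 436, against 1299 to 1488 in controls. After contraction injury it was 2915 to 3526 at 6 hours and 2607 to 5092 at 3 days. Myod1 alone gave 2212 to 2922 of the sum at 6 hours after freeze injury and 1649 to 2224 after contraction injury. In controls Myod1 gave 221 to 334. Of the 10, 1, 1 and 3 were called higher at 6 hours, 1 day and 3 days after freeze injury and 4 at 3 days after contraction injury. Without sample 436 these counts were 1, 2, 7 and 7. After freeze injury 1 marker was then lower at 6 hours and 2 were lower at 3 days. The sum of 7 fibroblast markers was 3436 to 5510 at 1 day, 11870 and 14040 at 3 days with 1582 on sample 436, and 21220 and 21590 at 7 days after freeze injury, against 2679 to 4940 in controls, and 5 of 7 were called higher at 7 days. The sum of 9 fibre markers was 29530 and 38210 at 3 days after freeze injury, with 167300 on sample 436, against 99750 to 163800 in controls, and 4 of 9 were called lower. The T cell gene Cd3e was between 7.4 and 26.1 on all 25 arrays, near the bottom of the scale, and 0 lymphocyte markers of 8 were called higher in any group, by limma with and without sample 436. Neutrophil markers, 8 in all, summed to 2844 to 4493 at 6 hours and 1998 to 3353 at 1 day after freeze injury, against 543 to 891 in controls, and 2 of 8 were called higher at both times, while at 3 days after freeze injury they summed to 461 to 703. Endothelial markers, 7 in all, summed to 1992 to 2176 at 1 day and 1112 to 1519 at 3 days after freeze injury, against 1315 to 1622 in controls. The ratio of 3′ to 5′ actin signal, a measure of RNA integrity, was 1.01 to 1.31 at 1 day and 0.741 to 1.09 at 3 days after freeze injury and 0.923 to 1.21 at 3 days after contraction injury, against 0.56 to 0.595 in controls. The part of these cell types and of the actin ratio in the changes of the members was not tested.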

How the data were processed

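Total RNA was extracted with TRIzol and then RNeasy columns and hybridised to 1 Affymetrix U74Av2 array per sample, per the labels' protocols. The deposited values are 1 intensity per probe set, the signal of MAS5 as the authors ran it (tool named per the submitters' processing notes, version not given in the sources used here). Trimmed means were 150.09 to 150.13 on all arrays, and MAS5 scaling to a common mean makes every change relative to the bulk of the array.

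From these intensities log2(signal + 13) was computed, and a probe set was tested where 2 or more arrays had it over their 40th percentile, leaving 9506 once the array maker's control probe sets were removed. Group means of all 25 arrays came from 1 limma fit (version 3.58.1, R 4.3.3), with variances moderated by eBayes along an intensity trend, and p-values were adjusted within each comparison by Benjamini-Hochberg. The fit was tested on simulated data. The number of arrays, 2 or 3 per group, limits the precision.

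Genes described singly were 20 chosen representatives that had a probe set, members called between injuries, and members with the largest changes of their list, with other members added for context. The members and lists were chosen with earlier results of these data known. Gene names come from the platform annotation. Promoter windows come from RefSeq, GRCm38.p6. Alternatives were other pseudocounts, no filter, quantile normalization, array weights, a fit of only the groups compared, 1 probe set per gene, adjacent sample numbers as a random block, and each array left out in turn.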

Additional observations from a re-analysis of the deposited data

Results flagged for a closer look

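In all, 3 members differed between the injuries at 1 day by the test of that difference itself (limma, adjusted p over all probe sets tested). Pcna was higher in freeze than in contraction muscle, with a difference of 1.42 on the log2 scale. Cdk1 was also higher in freeze than in contraction muscle, with a difference of 2.32. Ccnf was lower in freeze than in contraction muscle, with a difference of -1.28. With 3 freeze and 2 contraction arrays of that time, none of the 3 stayed called when 1 of these 5 arrays was left out. With adjacent sample numbers as a random block 1 of the 3, Pcna, was called.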

How the results depend on the processing

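Pseudocounts of 50 and 1 probe set per gene moved no count of called members by over 1.5 times. A pseudocount of 4 gave 1 member for freeze 3 days against 1 day, quantile normalization gave 1 for freeze at 6 hours, and sample numbers as a random block (correlation -0.094) gave 1 for freeze minus contraction at 1 day. Without a filter the counts were 0 for contraction at 1 day, 7 for contraction at 3 days and 1 for freeze 3 days against 1 day. Array weights gave 2 for freeze at 6 hours, 36 for freeze at 3 days, 16 for freeze at 7 days and 19 for contraction at 3 days. They gave 13, 24 and 10 for freeze minus contraction at 1, 3 and 7 days, 27 for freeze 3 days against 1 day, 31 for freeze 7 days against 3 days, 17 for contraction 3 days against 1 day and 21 for contraction 7 days against 3 days, with 37 for any change and 6 for the interaction. A fit of only the groups compared gave 0 for freeze at 3 days, 10 for freeze at 7 days, 0 for contraction at 1 day and 19 for contraction at 3 days. It gave 11 and 4 for freeze minus contraction at 1 and 7 days, 0 for either step of freeze muscle, 14 for contraction 3 days against 1 day and 20 for contraction 7 days against 3 days.

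With 1 array left out at a time, counts ranged from 0 to 2 for freeze at 6 hours, 4 to 15 at 1 day, 0 to 36 at 3 days and 0 to 15 at 7 days. For contraction they ranged from 0 to 0 at 6 hours, 0 to 1 at 1 day, 2 to 26 at 3 days and 0 to 1 at 7 days. For freeze minus contraction they ranged from 0 to 0 at 6 hours, 0 to 11 at 1 day, 0 to 13 at 3 days and 0 to 5 at 7 days. The steps ranged from 0 to 21 and 0 to 23 in freeze muscle and from 0 to 18 and 0 to 22 in contraction muscle, any change from 12 to 34 and the interaction from 0 to 4. Apart from contraction and freeze minus contraction at 6 hours, the highest value was that without sample 436 or equal to it. The direction turned for Rrm2, freeze minus contraction at 3 days, at -0.17 with all arrays, 1.17 with array weights and 1.29 without sample 436, with a range of -0.90 to 1.29 over the arrays left out. For freeze 7 days against 3 days it turned for Stmn1, at 0.40 with all arrays, -1.13 with array weights and -1.23 without sample 436, and for Cks1b, at 0.04 with all arrays, -1.14 with array weights and -1.23 without sample 436. The cause was not tested. No groups share replicate numbers in the labels, and no paired test was run. Most adjacent sample numbers, such as 417 and 418, are a contraction and a freeze array of the same time. The labels do not call them pairs. The random block of adjacent sample numbers above is the nearest to a paired analysis.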
